A study of Mus musculus with 6 samples.

Results

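Glutathione S-transferases join glutathione to electrophilic compounds, such as drugs and the aldehydes that form when lipids are oxidized, so that these can be exported from the cell and degraded. The soluble enzymes fall into classes named by Greek letters (alpha, mu, pi, theta, omega), and a separate family, the membrane-bound MAPEG enzymes, holds the microsomal transferases. Many of these genes are known targets of NRF2, the transcription factor that is released from KEAP1 when cells meet oxidants or electrophiles. In endothelial cells they belong to the enzymes that remove products of oxidative stress.

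10 such genes were followed here: *Gsta3* and *Gsta4* of the alpha class, *Gstm1*, *Gstm2* and *Gstm5* of the mu class, *Gstp1* (pi), *Gstt1* (theta), *Gsto1* (omega), and the microsomal *Mgst1* and *Mgst3*. They were found by gene symbol, which came from the probe's accession matched to RefSeq or, failing that, from the probe's description. They are 10 of 21733 named genes. They had 17 probes on 26 spots, out of 55681 non-control probes on 59305 spots. 4 of the genes had 1 probe each, 5 had 2, and *Gstm2* had 3. All 10 genes were measured, and 16 of the 17 probes were well above background on all 6 arrays. The exception, a *Gsta3* probe, fell short on 1 1G11-mock array.

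The cells were 1G11, a mouse microvascular endothelial line of the strain C57BL/6NCrLBR, as 1G11-mock (no SOD3 overexpression) and as 1G11-SOD3, which overexpresses the extracellular superoxide dismutase SOD3. Before RNA isolation both lines spent 6 h in conditioned medium of N202.1A, a mouse mammary cancer line, and 3 biological replicates of each were hybridized in 1 color to Agilent SurePrint Mouse G3 arrays on 1 slide. How the overexpressing line was made, and whether it is a single clone, is not given in the sources used here. On that slide the 1G11-SOD3 arrays made up row 1 and the 1G11-mock arrays row 2. An effect of the row and one of the cell line cannot be told apart.

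Values are log2 intensities after normexp background correction and quantile normalization, and a difference is always 1G11-SOD3 minus 1G11-mock on that scale. A probe was called when limma gave an adjusted p (Benjamini-Hochberg over all 55681 probes) under 0.05 and a change above 2-fold. With 3 arrays per line, the number of arrays limits the precision. The spot of *Sod3* itself read 13.61, 12.66 and 9.86 on the 1G11-mock arrays and 16.37, 16.30 and 16.26 on the 1G11-SOD3 arrays, a difference of 4.27 (SE 0.703, adjusted p = 0.00786), as the labels state. It was not called without 1G11-SOD3 replicate 3 (adjusted p = 0.0518).

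2 features of the arrays move with the cell line. The first is place. The 6606 spots of a block at the center of the array, called the middle, read dim on the 1G11-mock arrays. The local difference between the lines at a spot, measured as the median over its neighbors, had a median of 1.50 in the middle and 0.29 elsewhere (0.33 over all spots). The *Sod3* spot lies in the middle. 3 of the 26 member spots lie in the middle, 1 each of *Gsta3*, *Mgst1* and *Mgst3*, and they are reported apart. For all probes a second value is given after a position adjustment, in which the local deviation of each array was taken off before quantile normalization. For *Sod3* it was 2.74 (SE 0.503, adjusted p = 0.0164). The second feature is the level of cell type markers. Of 16 endothelial markers, 8 were dark, meaning that no array had them well above background, among them *Cdh5*, *Erg*, *Tek* and *Tie1*, while *Kdr*, *Eng* and *Vwf* were well above it on all arrays. 1 of the 16 was called higher in 1G11-SOD3 cells (*Egfl7*, 1.82, and 0.98 and not called after the position adjustment described next) and 1 lower (*Vwf*, -1.65, and -1.36 after it). Of 12 epithelial markers 1 was called, *Krt14*, whose spot lies in the middle, at 4.82 (adjusted p = 7.2e-05) and 2.08 after adjustment (adjusted p = 0.00166). Of 12 fibroblast and pericyte markers, 6 were called higher in 1G11-SOD3 cells by their brightest probe (*Col1a1*, *Col1a2*, *Col3a1*, *Acta2*, *Pdgfrb* and *Lum*) and none lower, where 3% of all named genes were called higher. The summed intensity of that list was 75932 to 77200 on the 1G11-mock and 141922 to 371681 on the 1G11-SOD3 arrays. For endothelial markers the sums were 23261 to 30874 and 17040 to 21230, for epithelial markers 68613 to 113082 and 57417 to 91321, and for 12 leukocyte markers, of which 8 were dark on all arrays, 18953 to 25878 and 20637 to 25590. Such sums follow the brightest genes of a list. For the fibroblast list on 1G11-SOD3 replicate 3 these were *Col3a1* (17.58) and *Dcn* (17.05). *Dcn* was at 13.51 and 13.59 on the other 1G11-SOD3 arrays and was not called. For the epithelial list it was *Krt19* (15.40 to 16.76), not called. Whether the marker differences reflect cell identity was not tested, nor was the part of either feature in the results below.

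The probes are oligonucleotides of 60 bases, and because the probes of 1 gene did not always give the same difference, they are named here by the transcript base at which they start. The probes of the 3 members that were called are shown first, since each of those genes had a single probe. Sequences are given from 5′ to 3′, whole for a probe that starts within the first 400 bases of its transcript and by 30 bases otherwise. The *Gsta4* probe is split by an intron in the array annotation (chromosome 9, 78046172 to 78047344), whereas those of *Gsto1* (chromosome 19, 47939128 to 47939187) and *Gstt1* (chromosome 10, 75246560 to 75246619) are each placed in 1 block. The build of these positions is not given in the files.
Gsta4, from base 194: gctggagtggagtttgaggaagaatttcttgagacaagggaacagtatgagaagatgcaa
Gsto1, from base 1010: ccatccccaaggccatcacctctggtttga
Gstt1, from base 975: actataatcactactttccccttgagtctg

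Outside the middle, 3 of 14 member probes were called, *Gsta4* and *Gsto1* lower and *Gstt1* higher in 1G11-SOD3 cells. Over all probes outside the middle 1.83% were called (0.644% higher and 1.18% lower), and over those of them that were well above background on all arrays 4.48%. None of the 3 member probes in the middle was called by limma, where 11.3% of all middle probes were, although 2 of the 3 had an unadjusted p under 0.05. How many of all middle probes had such a p was not counted. In 9 of the 17 probes the arrays of the lines did not overlap, against 20.6% of all probes. That share includes dim probes, and it was not counted for probes well above background. Among the 9 were the middle probes of *Mgst1* and *Mgst3*. Their arrays overlapped after position adjustment, as did those of *Gstm2* (base 985), *Gstp1* (base 117) and *Mgst1* (base 613). Those of *Gstm1* (base 807) and *Mgst3* (base 201) then no longer overlapped. After position adjustment the same 3 of 17 probes were called, against 3.72% of all probes.

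**Figure D1:**
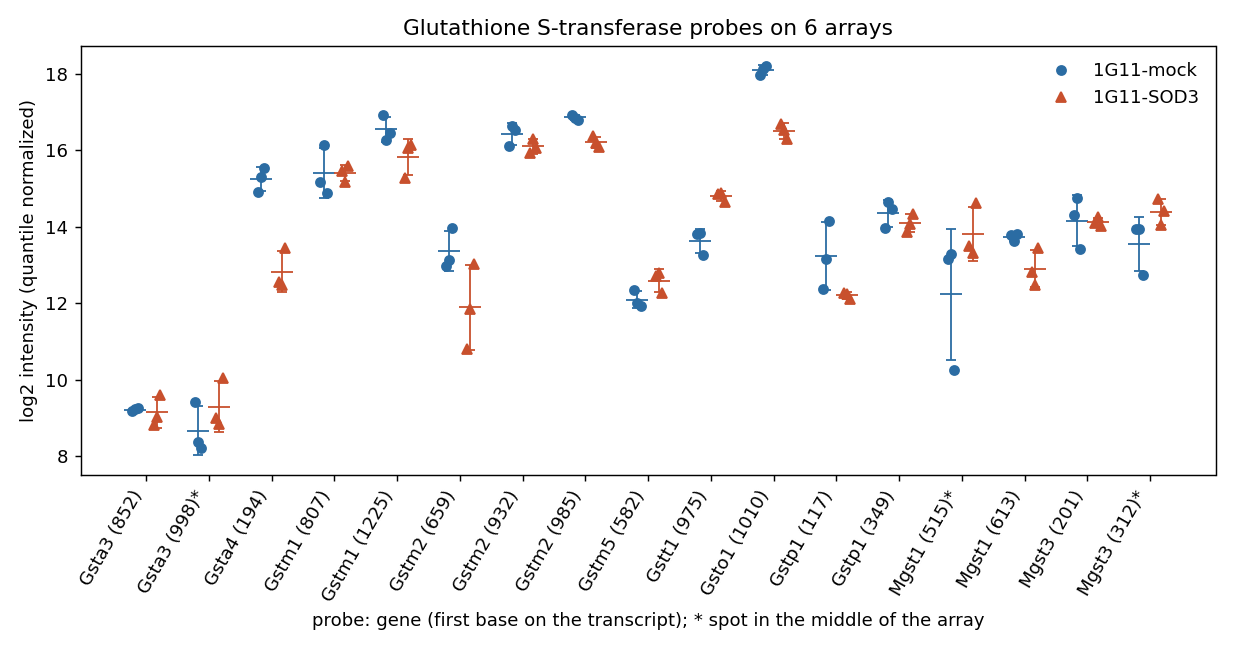
Log2 intensity (y axis, quantile normalized) of each of the 17 probes (x axis, gene and first transcript base) on the 3 1G11-mock arrays (circles) and the 3 1G11-SOD3 arrays (triangles), with the mean and SD of each line. The lines are far apart for Gsta4 and Gsto1, which read lower on every 1G11-SOD3 array, and for Gstt1, which read higher on every one.

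*Gsta4* encodes an alpha class enzyme known for conjugating 4-hydroxynonenal, an aldehyde from lipid peroxidation. Its probe read 14.91, 15.30 and 15.54 on the 1G11-mock arrays (mean 15.25 ± 0.32, SD, n = 3) and 12.55, 12.48 and 13.44 on the 1G11-SOD3 arrays (12.82 ± 0.54, SD, n = 3). Every 1G11-SOD3 array was thus below every 1G11-mock array, by more than the spread in either line. The difference was -2.43 (SE 0.298, adjusted p = 0.00162), or 5.37-fold lower in 1G11-SOD3 cells.

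The *Gsta4* probe is printed 10 times, so the difference could be read at 10 places of the same arrays, none of them in the middle. All 10 copies were lower in 1G11-SOD3 cells, from -2.89 to -1.89. The copies share their arrays and are no replicates of the cell lines. Their SD was 0.303 as normalized and 0.182 after position adjustment, when they ran from -2.42 to -1.80. The adjusted difference of the probe was -2.11 (SE 0.300, adjusted p = 0.00472). With 1 array left out at a time the difference ran from -2.74 to -2.25, with adjusted p at most 0.0165.

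**Figure D2:**
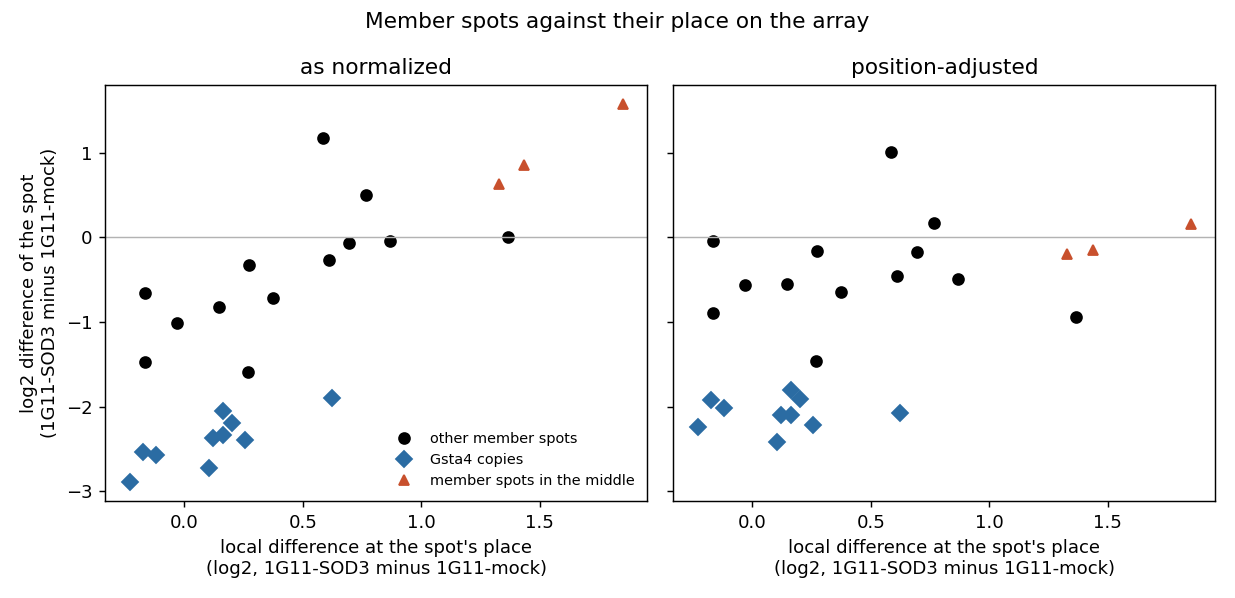
Difference of each of the 26 member spots (y axis, log2, 1G11-SOD3 minus 1G11-mock) against the local difference at its place (x axis, log2), as normalized (left) and position-adjusted (right). As normalized, the 3 spots in the middle and the Gstm1 spot beside it lie at local differences from 1.33 to 1.85; the 10 Gsta4 copies (diamonds) lie from -2.89 to -1.89 at the left and from -2.42 to -1.80 at the right.

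*Gsta3*, the other alpha class member, was dim. Its probe at base 852 read 9.18, 9.24 and 9.26 in 1G11-mock and 8.83, 9.04 and 9.61 in 1G11-SOD3 cells, and the lines overlapped. The difference was -0.07 (95% interval -0.62 to 0.48, adjusted p = 0.937), and -0.17 after position adjustment. An alpha class gene outside the 10 members differed more. *Gsta2*, which lies near *Gsta4* on chromosome 9 with *Gsta1* between them in the GRCm38.p6 annotation, read 14.87, 15.30 and 15.07 against 11.81, 12.17 and 12.46. Its difference was -2.93 (SE 0.247, adjusted p = 0.000208), or 7.64-fold lower, and -3.01 after position adjustment (adjusted p = 0.000656). It stayed called with any array left out. *Gsta1*, a close copy of *Gsta2*, had no named probe, and signal from its transcript at the *Gsta2* probe cannot be told apart.

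*Gsto1*, the omega class enzyme that is known to reduce dehydroascorbate and methylated arsenicals, was among the brightest probes of the array. It read 17.95, 18.14 and 18.19 on the 1G11-mock arrays (18.09 ± 0.12, SD, n = 3) and 16.69, 16.52 and 16.29 on the 1G11-SOD3 arrays (16.50 ± 0.20, SD, n = 3). The lines were apart by several times their spread. The difference was -1.59 (SE 0.222, adjusted p = 0.00325), or 3.02-fold lower in 1G11-SOD3 cells. The local difference at its spot was 0.27, near that of all spots, and after position adjustment the value was -1.46 (SE 0.200, adjusted p = 0.00395). Without 1 array it ran from -1.69 to -1.49, with adjusted p at most 0.0243.

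*Gstt1*, of the theta class, whose enzymes act on small halogenated compounds, was the only member called higher. It read 13.80, 13.83 and 13.27 in 1G11-mock (13.63 ± 0.32, SD, n = 3) and 14.86, 14.90 and 14.65 in 1G11-SOD3 cells (14.80 ± 0.13, SD, n = 3), with no overlap. The difference was 1.17 (SE 0.238, adjusted p = 0.0232), or 2.25-fold higher. After position adjustment it was 1.00 (SE 0.218, adjusted p = 0.0329), or 2.01-fold, close to the 2-fold limit. It was not called at an offset of 16 (adjusted p = 0.0563), nor when an array other than 1G11-mock replicate 1 was left out, where the difference ran from 0.99 to 1.27 and adjusted p from 0.0555 to 0.0937. A further probe, described as part of a theta 1 transferase but with no gene symbol and so not counted as a member, lies in the middle of the array. It read 9.0, 8.81 and 8.53 against 8.80, 8.72 and 8.79, a difference of -0.01 (adjusted p = 0.990), and of -0.79 after position adjustment (adjusted p = 0.0568). It thus did not show the increase of the *Gstt1* probe.

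**Figure D3:**
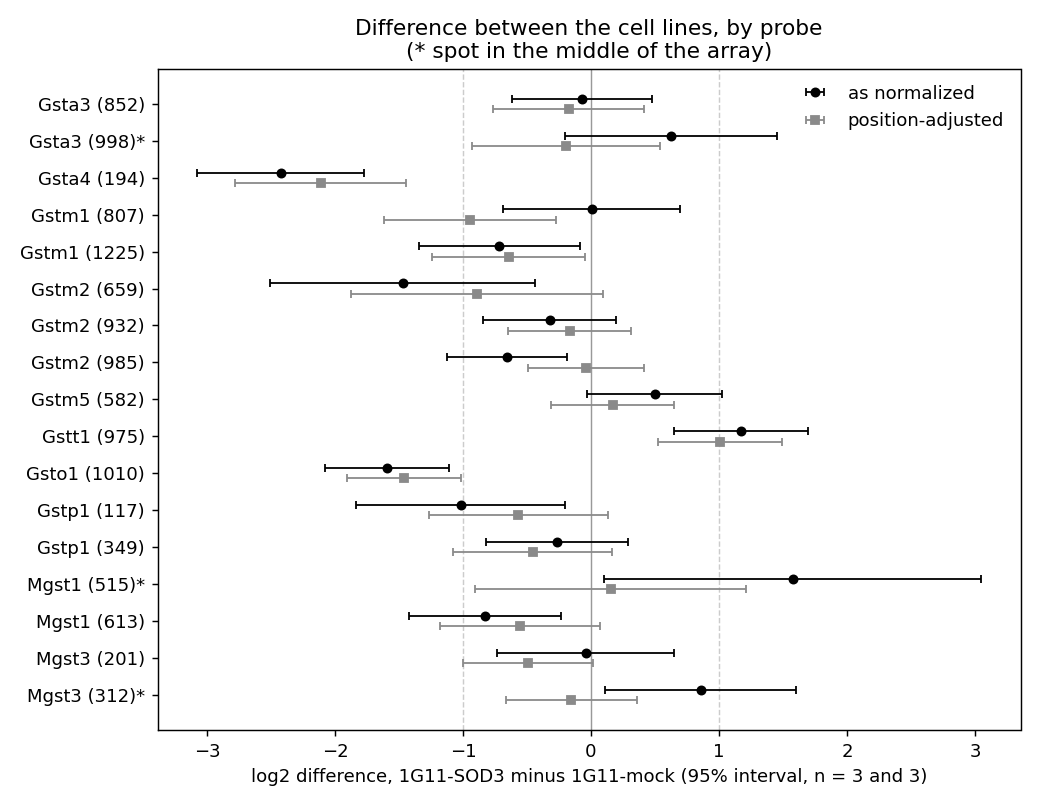
Difference between the cell lines (x axis, log2, 1G11-SOD3 minus 1G11-mock, with 95% interval from limma, n = 3 and 3) for each of the 17 probes (y axis), as normalized (circles) and position-adjusted (squares); dashed lines mark 2-fold. Gsta4, Gsto1 and Gstt1 keep their side under both, and the probes with a spot in the middle (asterisk) move toward 0.

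The mu class genes lie side by side on chromosome 3 and encode abundant cytosolic transferases. None of their 6 probes was called, and the probes of 1 gene differed from each other. Those of *Gstm2* read as follows. The probe at base 659 read 12.99, 13.14 and 13.96 in 1G11-mock and 10.80, 11.85 and 13.03 in 1G11-SOD3 cells, a difference of -1.47 (SE 0.472, adjusted p = 0.150). Its 1G11-SOD3 arrays were spread widely, and the highest of them overlapped the 1G11-mock arrays. With the replicate number as a block it was called (adjusted p = 0.0118), as it was without 1G11-SOD3 replicate 3 (-2.04, adjusted p = 0.0444) and with 75th percentile scaling (-1.36, adjusted p = 0.0391), but after position adjustment it was -0.89 (adjusted p = 0.279, or 0.0826 with the block).

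The 2 other *Gstm2* probes overlap on the transcript by 7 bases, shown in capitals below, and are placed on chromosome 3 from 107784675 to 107784734 and from 107784622 to 107784681. They show what 2 adjoining stretches of 1 transcript gave at distant places of the array.
Gstm2, end of the probe from base 932: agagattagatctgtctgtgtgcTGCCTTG
Gstm2, start of the probe from base 985: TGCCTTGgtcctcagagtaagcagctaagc
The probe at base 932 read 16.10, 16.62 and 16.54 against 15.93, 16.30 and 16.07, a difference of -0.32 (95% interval -0.84 to 0.20). The probe at base 985 read 16.93, 16.85 and 16.80 against 16.36, 16.18 and 16.07, a difference of -0.66 (SE 0.214, adjusted p = 0.157). Arrays overlapped for the former and not for the latter. After position adjustment the differences were -0.17 and -0.04, and the arrays of the lines overlapped for both.

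*Gstm1* had probes that the annotation places on different chromosomes. That at base 807 is placed with the other mu class genes on chromosome 3 (107815595 to 107815654), and that at base 1225 on chromosome 5 (117082490 to 117082549), away from the other mu class genes. In the GRCm38.p6 annotation chromosome 5 holds a pseudogene of the mu class, *Gstm2-ps1*, from 116632481 to 116633605. The build of the probe positions is not given. The *Gsto1* probe, placed from 47939128, lies outside the *Gsto1* gene of GRCm38.p6 (47854973 to 47864790). Probe positions and these gene positions can therefore not be compared directly. Whether the probe at base 1225 reads that pseudogene was not tested. That probe is the brightest of *Gstm1* and stands for the gene where 1 probe per gene is taken. The first bases of both probes are given below.
Gstm1, from base 807: atcgcaacacctatattttcaaagatggcc
Gstm1, from base 1225: tgttcctggtggaggagcctccccaggcct
The probe at base 807 read 15.18, 16.14 and 14.89 in 1G11-mock and 15.47, 15.17 and 15.59 in 1G11-SOD3 cells, a difference of 0.01 (95% interval -0.68 to 0.70). Its spot is in row 257, directly beside the middle, where the local difference was 1.37, and after position adjustment the value was -0.94 (SE 0.301, adjusted p = 0.112) with no overlap between the lines. The probe at base 1225 read 16.92, 16.28 and 16.44 against 15.28, 16.06 and 16.14, a difference of -0.72 (SE 0.287, adjusted p = 0.272) that was -0.64 after adjustment. *Gstm5*, with 1 probe, read 12.35, 12.01 and 11.94 against 12.72, 12.81 and 12.26. Its difference was 0.50 (95% interval -0.03 to 1.03, adjusted p = 0.385), or 0.17 after position adjustment.

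*Gstp1* encodes the pi class enzyme, which is also known to bind and restrain the stress kinase JNK. Its probes differ in what they can tell apart. For the probe at base 117 the annotation also lists the transcript of *Gstp2*, the neighboring copy of the gene, so that its signal may come from either. The probe at base 349 is split by an intron on chromosome 19 (4035908 to 4036723) and differs from the nearest *Gstp2* probe at 5 of 35 aligned bases, shown in capitals.
Gstp1, within the probe from base 349: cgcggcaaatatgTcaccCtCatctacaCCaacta
Gstp2, within the probe from base 331: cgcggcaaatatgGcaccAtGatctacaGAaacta
Gstp1 or Gstp2, probe from base 117: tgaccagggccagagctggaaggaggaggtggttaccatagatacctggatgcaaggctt
The probe at base 349 read 13.97, 14.65 and 14.46 against 13.87, 14.08 and 14.33, with overlap, and a difference of -0.27 (95% interval -0.82 to 0.29). The probe shared with *Gstp2* read 12.37, 13.16 and 14.15 in 1G11-mock and 12.28, 12.24 and 12.12 in 1G11-SOD3 cells. Its 1G11-mock arrays were spread over nearly 2 log2 units while its 1G11-SOD3 arrays lay together. That difference was -1.02 (SE 0.371, adjusted p = 0.219), and it was called only without 1G11-mock replicate 1 (-1.45, adjusted p = 0.0357). After position adjustment the probes gave -0.46 and -0.57, neither of them called.

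The microsomal transferases *Mgst1* and *Mgst3* are membrane enzymes that also act as glutathione peroxidases. Each had a probe in the middle and another outside it, and for each the middle probe read higher in 1G11-SOD3 cells. The outer probe read lower for *Mgst1* and showed almost no difference for *Mgst3*. The *Mgst1* probe at base 613, outside, read 13.77, 13.62 and 13.81 against 12.81, 12.47 and 13.45, with no overlap and a difference of -0.83 (SE 0.270, adjusted p = 0.159). The *Mgst1* probe at base 515, in the middle, read 13.16, 13.29 and 10.26 against 13.49, 13.31 and 14.63. The low value of 1G11-mock replicate 3 made up most of that difference, which was 1.58 (SE 0.671, adjusted p = 0.309) and 0.59 without that array. After position adjustment the outer probe was at -0.55 and the middle one at 0.15.

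For *Mgst3*, the outer probe at base 201 read 14.32, 14.75 and 13.42 against 14.09, 14.25 and 14.02, a difference of -0.04 (95% interval -0.73 to 0.65). The middle probe at base 312 read 13.95, 13.95 and 12.73 against 14.74, 14.05 and 14.40, a difference of 0.86 (SE 0.340, adjusted p = 0.267). The sequences of both are shown, since they lie near each other on the transcript and gave unlike differences, -0.04 and 0.86.
Mgst3, probe from base 201: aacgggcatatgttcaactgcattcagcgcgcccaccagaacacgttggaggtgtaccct
Mgst3, probe from base 312: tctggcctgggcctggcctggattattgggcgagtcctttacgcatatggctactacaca
After position adjustment both were on the same side, at -0.49 and -0.15, and neither was called. The *Gsta3* probe in the middle, at base 998, read 9.41, 8.39 and 8.23 against 9.0, 8.85 and 10.06. Its difference was 0.62 (95% interval -0.21 to 1.46, adjusted p = 0.506) and -0.20 after adjustment. The local difference at the 3 middle spots ran from 1.33 for *Gsta3* over 1.44 for *Mgst3* to 1.85 for *Mgst1*.

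Over the 14 probes outside the middle, 11 were lower and 3 higher in 1G11-SOD3 cells. Their median difference was -0.49, against -0.06 over all probes outside the middle and -0.03 over all probes. The share of all probes outside the middle that were lower was not counted. This leaning toward lower values depends on the scaling. With scaling to the 75th percentile in place of quantile normalization the median of all probes was itself -0.33, and relative to it the member median was 0.03 with 7 of 14 lower. With the processed signal of the scanner software the median of all probes was -0.52, and relative to it the member median was 0.01 with 6 of 14 lower. *Gsta4*, *Gsto1* and *Gstt1* kept their side relative to the median of all probes under both scalings (-1.95, -1.19 and 1.68, and -1.61, -0.86 and 1.56).

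Taking the brightest probe of each gene, 3 of the 10 members were called, 1 higher and 2 lower, where 4.76% of all named genes were called (3% higher and 1.76% lower). The other soluble transferases and MAPEG genes, 19 of 20 with a probe, included 5 that were dark on all 6 arrays (*Gstp3*, *Gstt2*, *Gstt4*, *Gstk1* and *Hpgds*). 2 of the 19 were called, both lower. They were *Gsta2*, described above, and *Mgst2*, a leukotriene C4 synthase of the MAPEG family. *Mgst2* read 11.26, 11.37 and 11.12 against 9.87, 10.04 and 10.24, a difference of -1.20 (SE 0.220, adjusted p = 0.0142). It was -0.50 and not called after position adjustment, and not called without 1G11-mock replicate 2 or 1G11-SOD3 replicates 1 or 2 (adjusted p from 0.0541 to 0.0731). *Gstm4*, at 13.90, 14.52 and 13.98 against 13.02, 12.95 and 13.49, missed both limits (-0.98, adjusted p = 0.0722) but was called after position adjustment with the replicate block (-1.01, adjusted p = 0.0483). The median of the 19, dark genes included, was -0.14, against -0.03 over all named genes.

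**Figure D4:**
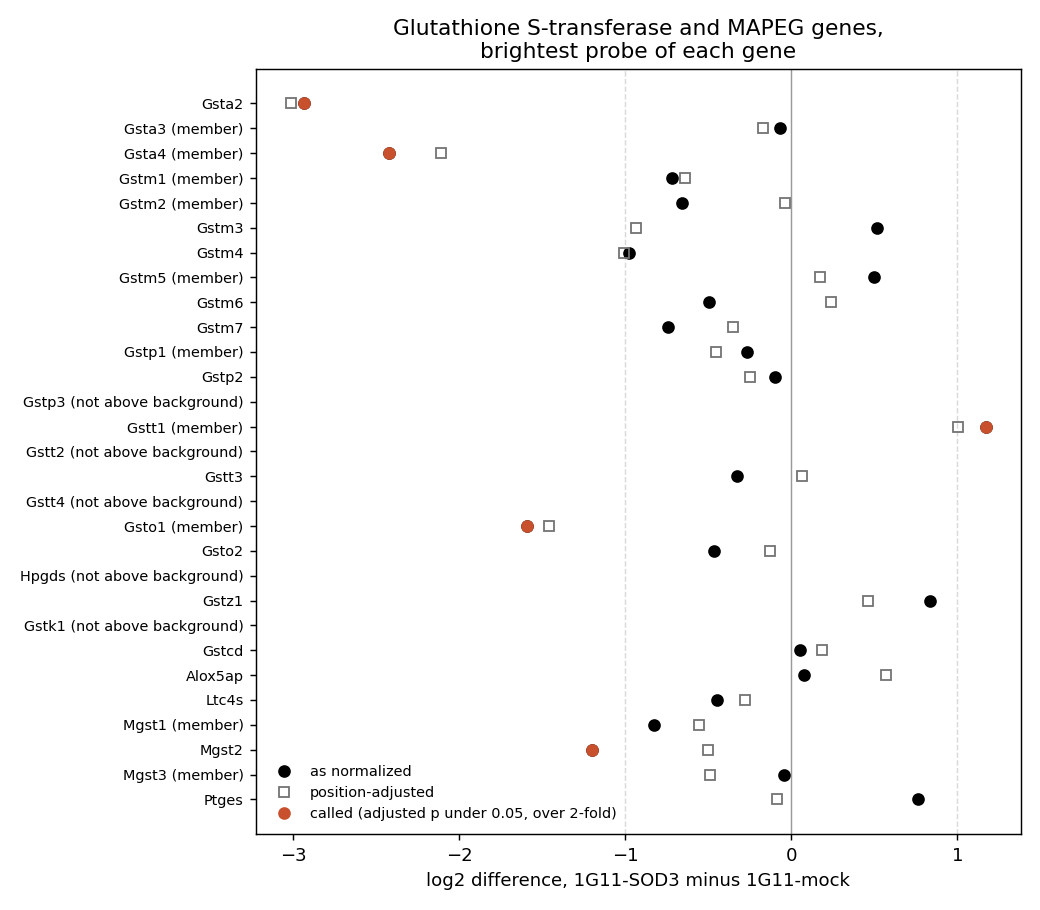
Difference (x axis, log2, 1G11-SOD3 minus 1G11-mock) of the brightest probe of every measured glutathione S-transferase and MAPEG gene (y axis, ordered by class), as normalized (filled) and position-adjusted (open squares), with called genes in red and dashed lines at 2-fold. Gsta2, Gsta4, Gsto1 and Mgst2 are called lower and Gstt1 higher; genes not above background on any array have no point.

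Genes that act after conjugation were taken as a list of 19 exporters and mercapturate enzymes, of which 7 were dark on all 6 arrays. 1 was called lower, *Abcc5* (an organic anion exporter), at 14.68, 15.08 and 14.90 against 13.26, 13.23 and 13.37, a difference of -1.60 (SE 0.220, adjusted p = 0.00301) that was -1.61 after position adjustment. 2 were called higher, the aminopeptidase *Anpep* and the γ-glutamyltransferase gene *Ggt6*, and the spots of both lie in the middle. Neither was well above background on any 1G11-mock array, so no fold change is given (adjusted p by limma = 0.000458 for *Anpep* and 0.00701 for *Ggt6*). Their 1G11-SOD3 means were set against the lowest signal well above background anywhere on each 1G11-mock array. They were 4.90-fold above it for *Anpep* and 1.68-fold for *Ggt6*. These ratios hold the effect of place and are no lower limits of the change. After position adjustment neither was called (adjusted p by limma = 0.162 for *Anpep* and 0.602 for *Ggt6*). The list then held 3 calls, *Abcc5* and the γ-glutamyltransferase genes *Ggt7*, higher (adjusted p = 0.00485), and *Ggt1*, lower (adjusted p = 0.0151). *Ggt7* was not well above background on any 1G11-mock array and *Ggt1*, whose spot lies in the middle, on none of the 6, so that no fold is given. As normalized *Ggt1* was not called (adjusted p = 0.714), and the local difference at its spot was 2.33. That local difference was measured on neighbors well above background on at least 3 arrays. Whether it holds for a dark spot was not tested, so the adjusted *Ggt1* call is not read as a decrease. The median of the list was 0.22, and 0.40 after adjustment, against -0.03 and 0.06 over all named genes. The dark genes are included in these medians, and the adjustment was not tested on dim spots.

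The 10 genes that supply glutathione (cystine uptake, synthesis and reduction) held no call by limma, although 4 had an unadjusted p under 0.05. The share of all named genes with such a p was not counted. The median of the 10 genes was 0.14, against -0.03 over all named genes. With the replicate block, with 75th percentile scaling or without 1G11-mock replicate 1, 1 gene of this list was called. With the block it was *Slc3a2*, a subunit of the cystine transporter, whose spot lies in the middle. It read 13.69, 13.68 and 11.24 against 15.59, 14.54 and 15.09, a difference of 2.20 (adjusted p = 0.0615, or 0.0168 with the block), and 1.10 after position adjustment (adjusted p = 0.131).

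Of 11 regulators of the NRF2 pathway none was called by limma and 6 had an unadjusted p under 0.05, with a median of -0.63 (-0.54 after position adjustment). Over all named genes the median was -0.03 (0.06 after adjustment), and the share with such a p was not counted. With 75th percentile scaling the median of all probes was itself -0.33. The medians of the gene lists were not computed under that scaling, so their dependence on it was not tested. *Nfe2l2*, which encodes NRF2, read 14.96, 14.73 and 14.56 in 1G11-mock and 13.11, 13.68 and 14.13 in 1G11-SOD3 cells, with no overlap. Its difference of -1.11 (SE 0.280) had an adjusted p of 0.0600 and was called after position adjustment (-1.04, adjusted p = 0.0365) and with dim probes left out (adjusted p = 0.0446). *Keap1*, whose spot lies in the middle, read 12.95, 13.29 and 11.27 against 13.77, 13.86 and 13.78. Its difference was 1.30 (SE 0.426, adjusted p = 0.162), or 0.48 after adjustment.

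Of 25 NRF2 target genes other than the transferases, 1 was called, the carbonyl reductase gene *Cbr1*. It read 12.22, 12.02 and 12.94 in 1G11-mock and 10.71, 10.61 and 11.56 in 1G11-SOD3 cells, a difference of -1.43 (SE 0.320, adjusted p = 0.0358). It was -1.05 after position adjustment, not called without the replicate block (adjusted p = 0.134) and called with it (adjusted p = 0.0298), and with 1 array left out it was called only without 1G11-SOD3 replicate 3, with adjusted p otherwise from 0.0589 to 0.138. *Aldh3a1*, an aldehyde dehydrogenase gene, read 18.47, 18.35 and 18.33 against 17.41, 17.27 and 17.47, with no overlap. Its difference of -0.996 (adjusted p = 0.0281) was just short of 2-fold, and after position adjustment it was called (-1.13, adjusted p = 0.0219). 10 of the 25 had an unadjusted p under 0.05, with 17 of the 25 lower, and the median of the list was -0.13, against -0.03 over all named genes. The shares of all named genes with such a p, or with a lower value, were not counted.

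Because NRF2 acts through the antioxidant response element, the letters TGACNNNGC were searched on both strands in the promoter windows of RefSeq (GRCm38.p6, 250 bases before to 50 after each gene start). 9 of the 10 members had a window, and *Gsta4* had none. 3 of the 9 held a match, *Gsta3*, *Gstm5* and *Mgst1*, as did 13.99% of all 27025 genes. The matches are shown with 12 bases on either side and the motif in capitals, read along the strand of the gene. None of these 3 genes was called, and a match of letters is no measure of binding.
Gsta3, chr1:21240452-21240484, plus strand: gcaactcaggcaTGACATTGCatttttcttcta
Gstm5, chr3:107895800-107895832, plus strand: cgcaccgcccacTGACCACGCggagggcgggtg
Mgst1, chr6:138140459-138140491, plus strand: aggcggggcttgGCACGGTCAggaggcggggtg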

How the data were processed

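For each array the authors deposited the Agilent Feature Extraction 10.7.3.1 output, with unnormalized spot and local background intensity, and a log2 table made by normexp correction and quantile normalization. That table was recomputed from median pixel intensity to within 0.005 and served as an alternative. Here the mean spot intensity was background corrected (normexp, offset of 50), taken to log2 and quantile normalized without control spots. Outlier spots were left out, spots of 1 probe averaged, and the lines compared with limma 3.58.1 in R 4.3.3. A probe was well above background on an array when the scanner software marked at least 50% of its spots so. The position adjustment took the median deviation of neighboring spots (12 rows and 6 columns to each side, well above background on at least 3 arrays) off each array. It was also taken off dim spots, where its size was not tested. Copies of 192 bright probes then had a median SD of the difference of 0.165, against 0.438 before.

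Same-numbered arrays of the lines deviated together weakly (r across probes of 0.201, 0.141 and 0.138). After position adjustment pair 1 had 0.0936, and 1G11-mock replicate 2 with 1G11-SOD3 replicate 1 had 0.153. The numbers coincide with slide columns, so a pairing of the replicates and an effect of the column cannot be told apart. The main comparison had no block for the replicate number, which was tried as an alternative. The members, lists and settings were chosen with earlier results of these data known. All probes of the 10 genes are named, with *Sod3*, *Nfe2l2*, *Keap1* and, of each list other than markers, up to 4 called genes per direction. Marker genes, and *Gstm4*, *Ggt7*, *Ggt1*, *Slc3a2* and *Aldh3a1*, were named after their values had been seen. Between 34.2% and 43.8% of spots per array were well above background and none was saturated. Python 3.11.15, pandas 2.3.3 and matplotlib 3.10.9 made tables and figures. The fit was tested on simulated data.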

Additional observations from a re-analysis of the deposited data

How the results depend on the processing

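*Gsta4*, *Gsto1* and *Gstt1* kept their direction under all 22 alternatives tried, and *Gsta4* and *Gsto1* also stayed called. Of 367 values of the 17 member probes under these alternatives, 331 kept their sign and their side of the threshold and 25 changed sign, on 6 probes that were not called. The cause of a change was not tested where none is named. The *Gstm1* probe at base 807 was at -0.015 with median pixel intensity, -0.017 with the deposited table, -0.77 with the processed signal, -0.94 with position adjustment, with or without the replicate block, and between -0.25 and 0.38 with 1 array left out. *Mgst3* at base 201 was at 0.13 with 75th percentile scaling, 0.033 with cyclic loess, 0.083 without the middle, 0.11 without the middle and its margin, and between -0.41 and 0.25 with 1 array left out. *Gsta3* at base 852 was at 0.013 with cyclic loess, 0.084 without the middle, 0.12 without the middle and its margin, and between -0.29 and 0.10 with 1 array left out. With position adjustment, with or without the replicate block, the middle probes of *Gsta3* (base 998) and *Mgst3* (base 312) turned to -0.20 and -0.15. *Gstm2* at base 985 turned to 0.085 with the processed signal. The middle probe of *Mgst1* was called with 75th percentile scaling (1.73, adjusted p = 0.0295), which made 1 call in the middle, and *Keap1* was called with that scaling too (1.46, adjusted p = 0.0181).

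With 1 array left out, 2 to 4 member probes outside the middle were called, none in it, and 2 to 3 member genes. For the other transferases and MAPEG genes that count was 1 to 2, for export genes 3 throughout, for glutathione supply 0 to 1, for NRF2 regulators 0 and for NRF2 targets 0 to 1. The count of other transferases was 1 with position adjustment and 1 without the middle and its margin. Export genes had 6 calls with the processed signal. Supply genes had 1 with 75th percentile scaling and 1 with the replicate block. NRF2 regulators had 1 with the processed signal, 75th percentile scaling, position adjustment (also with the block) or the mean of all probes, and 2 with dim probes left out. NRF2 targets had 3 with median pixel intensity or the deposited table, 2 with the mean of all probes or with position adjustment and the block, and 0 with no background correction, an offset of 16, a variance trend, or without the middle or the middle and its margin. Without position adjustment, the replicate block changed the call of 1 member probe (*Gstm2*, base 659), and the supply list was the only list whose count it moved beyond 1.5 times. With position adjustment it changed no member call, and took other transferases from 1 to 2 calls and NRF2 targets from 1 to 2. Over all probes, 1040 were called higher and 589 lower, against 605 and 1465 after position adjustment and 1200 and 9918 with the processed signal. Position adjustment with the block, and leaving out the margin of the middle, were added after the data had been seen. 3 arrays per line limit what could be called, and for dim probes so does signal over background.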

Other observations

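A probe without a gene symbol, described as similar to the glutathione transferase GT8.7, lies in the middle of the array. It was well above background on none of the 3 1G11-mock and on all 3 1G11-SOD3 arrays. It read 8.17, 7.96 and 7.20 in 1G11-mock and 8.01, 8.08 and 8.02 in 1G11-SOD3 cells, too close to background for a fold change. As normalized its difference was 0.26 (adjusted p = 0.727). The local difference at its spot was 2.56, and after position adjustment the value was -1.94 (adjusted p = 0.00554). That local difference was measured on neighbors well above background on at least 3 arrays. Whether it holds for a spot this close to background was not tested, so the adjusted value is not read as a decrease.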
